A study of Mus musculus with 6 samples.

Results

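The ADAM and ADAMTS proteases described here are 10 genes, 5 that code for membrane-bound ADAM proteases (Adam8, Adam9, Adam10, Adam12 and Adam17) and 5 that code for secreted ADAMTS proteases (Adamts1, Adamts2, Adamts4, Adamts5 and Adamts9). They were chosen by gene symbol, and all 10 were found among the 15663 genes of the count tables. Their RNA was measured by RNA-seq in RPE-choroid, the retinal pigment epithelium together with the vascular layer beneath it, from 3 control mice and 3 mice with subretinal fibrosis, abbreviated SRF. All 6 were wild-type C57BL/6 animals, given in the methods as C57BL/6J males aged 8 to 10 weeks, and the control mice were untreated. The SRF mice had received 4 laser burns in each eye, a second burn on each lesion 10 days later, and had their tissue taken 20 days after that second laser. The whole RPE-choroid of lasered eyes was sequenced, lesions and unburned tissue together, so fewer cells of a type and less RNA per cell cannot be told apart.

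Both families are zinc-dependent metalloproteases. ADAM proteases sit in the cell membrane and mostly act as sheddases, cutting the outer parts of cytokines, growth factors and receptors off the cell surface, with ADAM17 known for the release of TNF and ADAM10 for the cleavage of Notch and cadherins. ADAMTS proteases are secreted and cut the extracellular matrix, either the large proteoglycans (ADAMTS1, ADAMTS4, ADAMTS5 and ADAMTS9) or the propeptides of fibrillar procollagens (ADAMTS2). Tissue inhibitors of metalloproteinases block many of these enzymes, and TIMP3, which is abundant in Bruch's membrane under the retinal pigment epithelium, is the main inhibitor of ADAM17 and the aggrecan-cutting ADAMTS proteases.

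What the 10 genes share in sequence is the stretch that codes for the catalytic zinc site. Each stretch is written 5′ to 3′ on the coding strand, 33 bases for each gene, from the GENCODE transcripts placed on GRCm38, with the codons of the 3 zinc-binding histidines in capitals. The order follows the roles given above, sheddases before matrix proteases.
Adam10: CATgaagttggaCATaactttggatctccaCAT
Adam17: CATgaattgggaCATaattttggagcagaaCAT
Adam9: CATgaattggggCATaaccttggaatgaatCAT
Adam8: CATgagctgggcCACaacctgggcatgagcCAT
Adam12: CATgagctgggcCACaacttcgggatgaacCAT
Adamts1: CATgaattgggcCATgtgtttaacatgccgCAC
Adamts4: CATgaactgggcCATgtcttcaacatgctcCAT
Adamts5: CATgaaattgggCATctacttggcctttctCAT
Adamts9: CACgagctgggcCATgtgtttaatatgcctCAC
Adamts2: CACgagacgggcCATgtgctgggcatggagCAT
In Adam10 (chr9:70754296-70761585), Adamts1 (chr16:85799191-85799545), Adamts4 (chr1:171253210-171253915), Adamts5 (chr16:85878015-85887826), Adamts9 (chr6:92905285-92908493) and Adamts2 (chr11:50775403-50776134) an intron splits the stretch. It lies within 1 coding exon in Adam17 (chr12:21336732-21336764), Adam9 (chr8:24990326-24990358), Adam8 (chr7:139987893-139987925) and Adam12 (chr7:133961158-133961190). The eighth codon coded for glycine in 7 genes and for asparagine in Adamts1, Adamts4 and Adamts9. Adam8 and Adam12 shared 29 of the 33 bases, Adamts1 and Adamts9 28, and Adam10 and Adam17 26. Within the 5 ADAM genes the pairs shared a median of 24 bases, within the 5 ADAMTS genes 21.5, and between the families 19.0. The motif was also coded by 14 of 28 other ADAM genes and 13 of 14 other ADAMTS genes that were searched.

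The total count per library ran from 13667310 (control 1) to 24356023 (control 3), and the lowest member count was 12, for Adam12 in control 2. Levels are given as CPM, counts scaled to library size and composition, and levels are compared between genes only as FPKM, which also divides by transcript length. All 15 RPE markers were listed, with a summed level of 51468 to 59204 CPM in control mice and 37138 to 45839 CPM in SRF mice. Control 1 and SRF 3 stood apart from the others in photoreceptor RNA, with 14043 and 13593 summed CPM over 20 markers against 817 to 1937 in the other 4 libraries. The log2 fold change of each of the 10 genes is given with and without them, while the order of levels, the counts of genes whose groups do not overlap and the related lists are given over all 6 mice only.

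By FPKM, Adam10 was the most abundant of the 10 genes in control mice (mean 26.8, n = 3), followed by Adam9 (17.8), Adamts1 (15.7), Adam17 (9.46), Adamts2 (4.91), Adamts5 (2.47), Adamts9 (1.53), Adamts4 (1.13), Adam8 (0.853) and Adam12 (0.240). The constitutive sheddase Adam10 therefore stood above the matrix-cutting ADAMTS genes. Neighbours in this order overlapped between mice except Adam10 and Adam9, Adam17 and Adamts2, and Adam8 and Adam12. In SRF mice the first 6 places were held by the same genes in the same order, from Adam10 at 25.5 to Adamts5 at 2.74 FPKM. Adam8 moved from place 9 to place 7, with a mean of 2.25 FPKM, ahead of Adamts4 (1.797), Adamts9 (1.23) and Adam12 (0.397). Its range of 1.73 to 2.80 overlapped those of Adamts5 and Adamts4, its new neighbours, so these places are not told apart by the spread between mice.

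**Figure D1:**
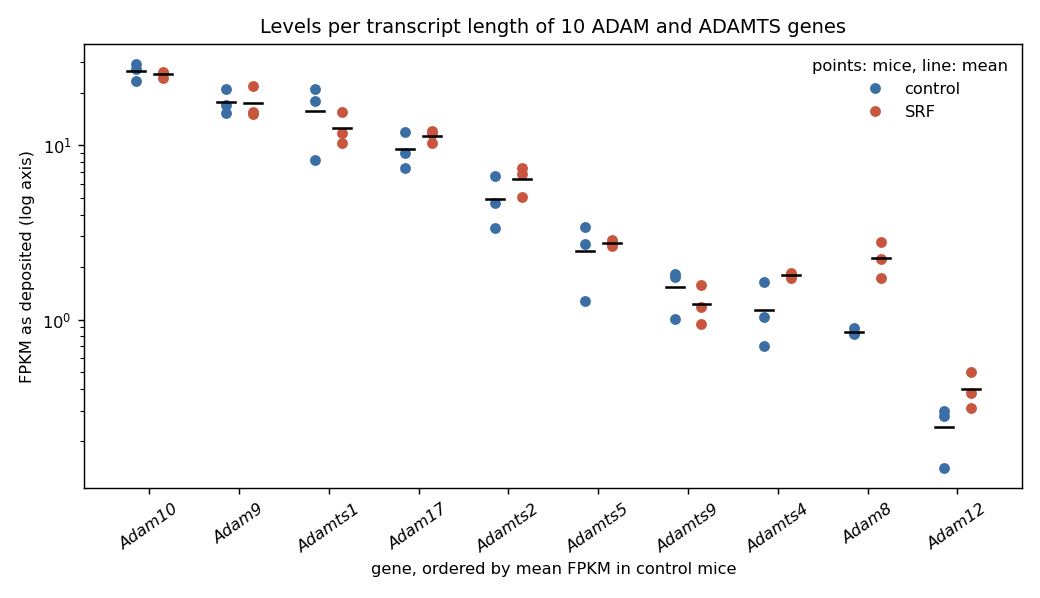
FPKM as deposited (log axis) for each of the 10 genes in each mouse, with the genes ordered by their mean in control mice and a line at each group mean. Adam10 lies highest and Adam12 lowest in both groups, and the Adam8 points of SRF mice (1.73 to 2.80) lie above those of control mice (0.83 to 0.89).

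The comparison of SRF with control mice asked which of these protease genes differ in RNA level after the laser injury. All 10 genes passed the filter on low counts. A gene was called where its Benjamini-Hochberg adjusted p was under 0.05 and its log2 fold change reached 0.5 in either direction. With edgeR's quasi-likelihood test none of the 10 was called, as none of the 13454 tested genes was (0.00%), and at an unadjusted p under 0.05 1 of the 10 was, Adam8, against 7.01% of all genes. With DESeq2 1 of the 10 was called, again Adam8, against 1.14% of all genes. The groups did not overlap for 3 of the 10 genes, Adam8, Adam12 and Adamts4, all higher in SRF mice, against 13.1% of all genes in either direction and 6.71% higher in SRF. The log2 fold change was above 0 for 6 genes and below 0 for 4, with a median of 0.15 against 0.0012 over all tested genes.

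**Figure D2:**
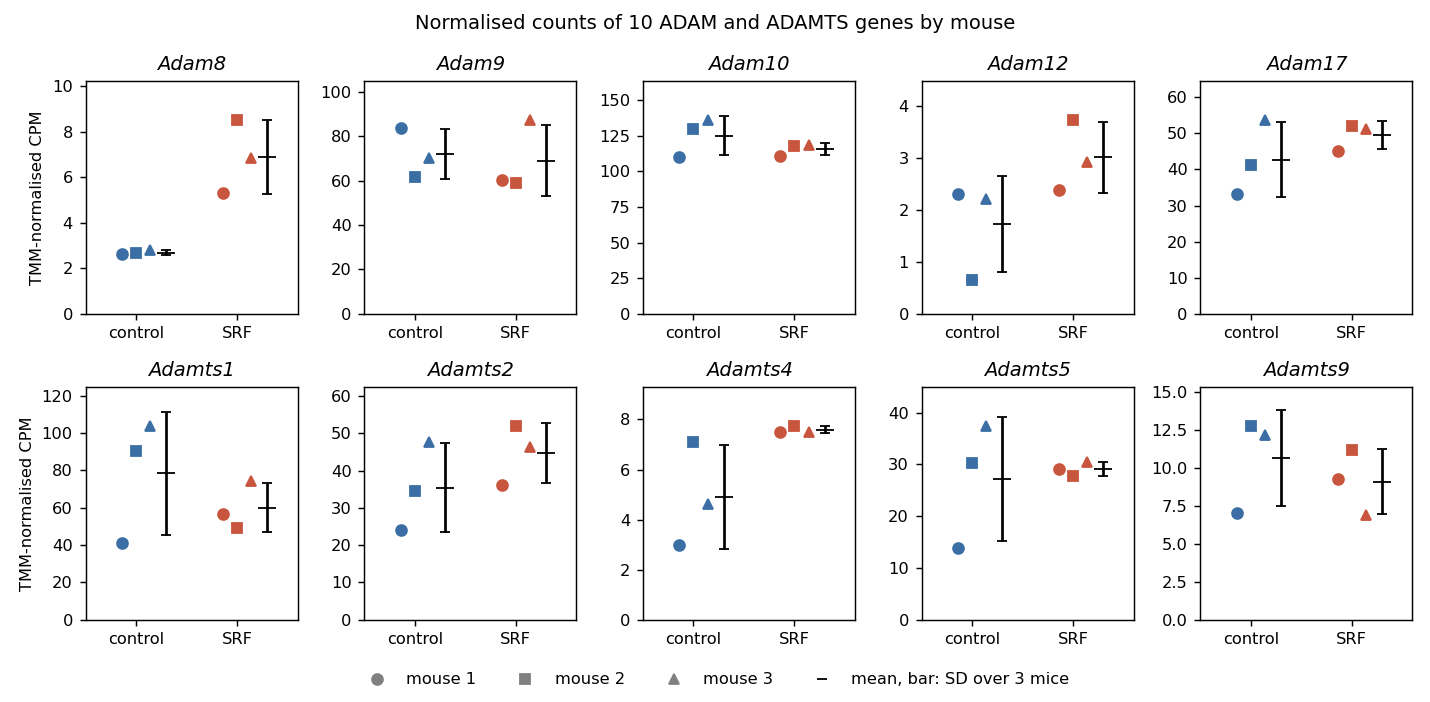
Normalised counts (CPM) of the 10 genes, 1 panel per gene with its own axis from 0, points for single mice and a bar of mean ± SD (n = 3). The SRF points lie wholly above the control points for Adam8, Adam12 and Adamts4 only.

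Adam8, a sheddase made by myeloid cells such as macrophages and neutrophils, was the gene with the largest difference. Its level was 2.61, 2.66 and 2.80 CPM in the 3 control mice (counts of 35, 49 and 67) and 5.30, 8.52 and 6.83 CPM in the 3 SRF mice (counts of 98, 153 and 122). Every SRF mouse was above every control mouse, and the control mice lay closer together (2.69 ± 0.0979 CPM, SD) than the SRF mice (6.88 ± 1.61 CPM). That difference in spread was not tested. The fold was 2.56, a log2 fold change of 1.35 with a standard error of 0.28. Its adjusted p was 0.298 by edgeR, which made no call, and 0.0159 by DESeq2, which did. The exact permutation test over the mice gave p = 0.1, the smallest that 3 against 3 allow. Without control 1 and SRF 3, the log2 fold change was 1.34, with an adjusted p of 0.119 by edgeR and 0.0408 by DESeq2. Over all other settings the adjusted p of Adam8 ran from 0.119 to 0.9999 by edgeR and limma and from 0.00552 to 0.278 by DESeq2, which lost the call without control 2 (0.124), control 3 (0.0506) or SRF 2 (0.278) and with a replicate block (0.0956).

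Macrophage and microglia markers moved the same way as Adam8. Their summed level was 1485 to 1923 CPM in control mice and 3394 to 4847 CPM in SRF mice, SRF 2 being highest for these markers and for Adam8. Of the 15 markers, 10 were higher at an unadjusted p under 0.05 by edgeR (4.16% of all genes were), and DESeq2 called 6. Neutrophil markers summed to 11.1 to 18.3 CPM in control mice and 16.1 to 18.9 CPM in SRF mice. Of the 3 neutrophil markers tested, 1 was higher at an unadjusted p under 0.05 by edgeR and none lower. Their median log2 fold change was 0.42, and DESeq2 called none. Ly6g, Elane, Mpo and Ngp, 4 of the 10 neutrophil markers, were not listed. The lowest count listed for any gene was 1, so an unlisted gene need not be absent from every library. The part of these cells in the Adam8 difference was not tested.

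Adam8 (ENSMUSG00000025473) lies on the minus strand of chromosome 7 at chr7:139978932-139992562. Its promoter, the 250 bases before the RefSeq start on GRCm38.p6 (chr7:139992563-139992812), is shown because Adam8 was the gene DESeq2 called over all 6 mice, with the GC box in capitals.
Adam8 promoter: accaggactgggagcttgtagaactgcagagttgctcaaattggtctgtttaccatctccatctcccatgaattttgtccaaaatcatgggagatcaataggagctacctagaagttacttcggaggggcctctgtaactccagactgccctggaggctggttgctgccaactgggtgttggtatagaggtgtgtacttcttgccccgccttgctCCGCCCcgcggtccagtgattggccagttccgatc
The window was searched on both strands for the AP-1 motif (TGANTCA), the cyclic AMP response element (TGACGTCA), the PU.1 core (GAGGAA), the GC box (GGGCGG) and the TATA box (TATAAA), none of which contains another. It held 1 match, a GC box whose first base lies 35 bases before the start, a motif found in 32.7% of the 32851 promoters of that length. The AP-1, response element, PU.1 and TATA letters are held by 6.75%, 1.55%, 23.3% and 12.4% of those promoters. A match is a description of these letters only.

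Adam12, an ADAM protease of mesenchymal and muscle cells, had the fewest reads of the 10 genes. It stood at 2.31, 0.651 and 2.21 CPM in control mice and 2.38, 3.73 and 2.91 CPM in SRF mice, from counts of 31, 12 and 53 against 44, 67 and 52. The groups did not overlap, but by little, since SRF 1 stood next to control 1, and control 2 was far below the rest. SRF over control came to 0.80 on the log2 scale with a standard error of 0.53 and an edgeR adjusted p of 0.888. It came to 1.06 without control 1 and SRF 3 and to 0.41 without control 2. The deposited FPKM gave another picture of control 2, since the length implied by count over FPKM was 0.631 of the gene's mean there and 1.05 to 1.09 in the other 5 libraries. By limma the log2 fold change of Adam12 was 0.56 on log2(FPKM + 0.1) and 0.17 on log2(FPKM + 1), scales on which a pseudocount of this size against 0.14 to 0.50 FPKM lowers the change.

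Among the sheddases of broad expression, Adam10, Adam17 and Adam9, none differed beyond the spread between mice. Adam10 had levels of 110, 130 and 136 CPM in control mice and 111, 118 and 118 CPM in SRF mice. Its log2 fold change was -0.12 with a standard error of 0.12, the tightest of the 10, and its edgeR adjusted p was 0.971. Without control 1 and SRF 3 it was -0.22. The SRF mice all lay within the range of the control mice.

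Adam17, the TNF-converting enzyme, measured 33.2, 41.1 and 53.8 CPM in control mice and 45.1, 52.1 and 51.3 CPM in SRF mice. Control 1 was lowest and control 3 highest, so that the control range held all SRF mice. On the log2 scale the change was 0.21 with a standard error of 0.19 and an edgeR adjusted p of 0.950. It was 0.03 without control 1 and SRF 3, 0.06 without control 1 and 0.41 without control 3, with no call in any of these. Adam17 shares 311 of 7154 exon bases with the antisense gene Iah1 (16.3 to 23.4 CPM, log2 fold change -0.02), and whether the counting used strand is not given in the sources used here.

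Adam9, a sheddase of many epithelial and stromal cells that has been linked to inherited cone-rod dystrophy, stood at 83.9, 61.8 and 70.0 CPM in control mice and 60.5, 59.0 and 87.4 CPM in SRF mice. Its highest levels were in control 1 and SRF 3, the 2 libraries rich in photoreceptor RNA. The log2 fold change was -0.06 with a standard error of 0.20 and an edgeR adjusted p of 0.9999. Without control 1 and SRF 3 it was -0.14. Its sign turned in 6 of the 26 other settings tried, all of which left out 1 mouse.

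**Figure D3:**
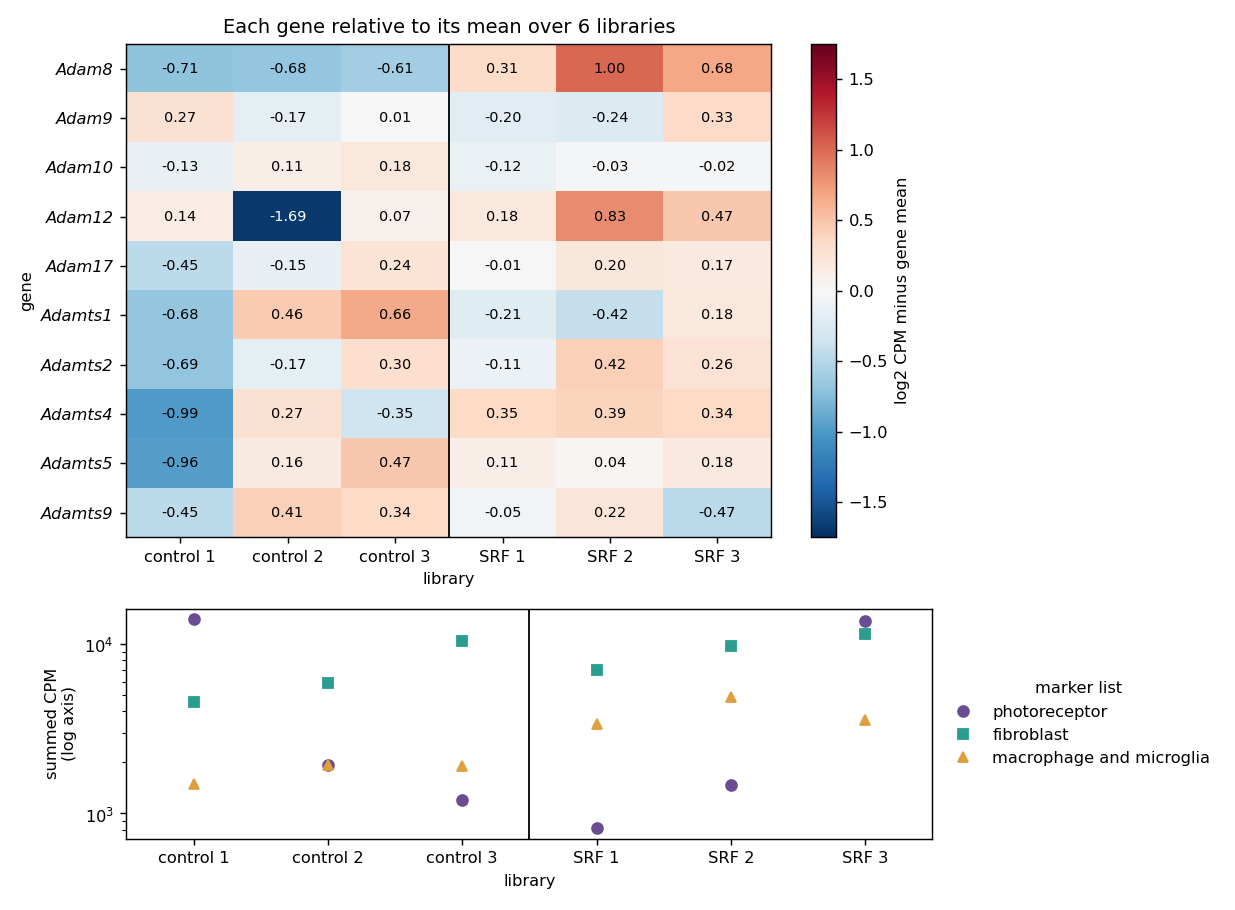
Top, log2 CPM of each gene minus its mean over the 6 libraries, as coloured cells with the value written in; bottom, summed CPM (log axis) of the photoreceptor, fibroblast and macrophage and microglia marker lists in the same libraries. Control 1 is low for most of the 10 genes, and control 1 and SRF 3 carry the 2 high photoreceptor sums (14043 and 13593 CPM).

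Adamts1, a secreted protease that cuts versican and aggrecan and has anti-angiogenic activity, had the largest difference in the downward direction, and it depended on which libraries entered. It had levels of 40.9, 90.4 and 104 CPM in control mice and 56.6, 48.9 and 74.4 CPM in SRF mice. Control 1 was the lowest of all 6 libraries and the other 2 control mice were the highest. Over all 6 mice the log2 fold change was -0.39 with a standard error of 0.34 and an edgeR adjusted p of 0.950. Control 1 was the lowest control mouse for this gene and SRF 3 the highest SRF mouse, so leaving both out widens the difference. Without control 1 and SRF 3 the log2 fold change was -0.88 with a standard error of 0.14, from 2 mice a group. Adamts1 was then called by edgeR (adjusted p = 0.0289) and by DESeq2 (adjusted p = 6.54e-05). Among all genes, edgeR called 1.14% in those 4 mice, 0.320% lower in SRF, and DESeq2 called 3.74%. Without control 1 alone the adjusted p was 0.443 by edgeR and 0.1002 by DESeq2, and no other setting called Adamts1. With the photoreceptor level of each library as a covariate in edgeR, all 6 mice gave -0.35 with an adjusted p of 0.839. Leaving out any 1 mouse kept the log2 fold change below 0, from -0.70 to -0.13 by edgeR.

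Adamts1 (ENSMUSG00000022893, chr16:85793827-85803113, minus strand) has its RefSeq promoter at chr16:85803114-85803363, shown because it was the gene called lower without those libraries, with its 3 GC boxes and its TATA box in capitals.
Adamts1 promoter: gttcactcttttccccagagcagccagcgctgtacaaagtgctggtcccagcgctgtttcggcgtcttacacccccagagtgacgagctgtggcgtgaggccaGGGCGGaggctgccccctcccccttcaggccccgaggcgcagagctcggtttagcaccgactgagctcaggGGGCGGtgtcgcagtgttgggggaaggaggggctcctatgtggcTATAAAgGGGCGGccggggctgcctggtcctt
The GC boxes begin 147, 76 and 25 bases before the start and the TATA box 32 bases before it. The AP-1, response element and PU.1 letters were not in the window. Its GC content was 65.6%, against 52.8% for the Adam8 window and a median of 52.4% over all promoters.

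Adamts5, the main aggrecan-cutting protease in mice, is the neighbour of Adamts1 on chromosome 16 (chr16:85856173-85901828, a gap of 53059 bases). It measured 13.9, 30.2 and 37.4 CPM in control mice and 29.2, 27.8 and 30.5 CPM in SRF mice. The SRF mice lay close together and inside the control range, which control 1 opened at the bottom. The log2 fold change was 0.10 with a standard error of 0.33 over all 6 mice and -0.25 without control 1 and SRF 3, with edgeR adjusted p-values of 0.9999 and 0.454.

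Adamts4, another aggrecan-cutting protease, stood at 2.98, 7.11 and 4.63 CPM in control mice and 7.52, 7.74 and 7.51 CPM in SRF mice. The 3 SRF mice differed by little from each other (7.59 ± 0.133 CPM, SD) while the control mice ranged widely (4.91 ± 2.08 CPM), and control 2 came near the SRF mice. The counts were 40, 131 and 111 in control mice and 139, 139 and 134 in SRF mice, and the difference in spread was not tested. SRF over control came to 0.62 on the log2 scale with a standard error of 0.34 and an edgeR adjusted p of 0.827. Without control 1 and SRF 3 it was 0.38.

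Adamts9, a proteoglycan-cutting protease, had levels of 6.998, 12.7 and 12.1 CPM in control mice and 9.25, 11.1 and 6.89 CPM in SRF mice. Its lowest levels were in control 1 and SRF 3, and the groups overlapped. On the log2 scale the change was -0.23 with a standard error of 0.30 and an edgeR adjusted p of 0.999. It was -0.29 without control 1 and SRF 3, -0.45 without control 1 and -0.07 without SRF 3.

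Adamts2, the procollagen N-propeptidase, measured 24.05, 34.5 and 47.8 CPM in control mice and 36.1, 52.0 and 46.4 CPM in SRF mice. SRF 2 was highest and control 1 lowest. The log2 fold change was 0.34 with a standard error of 0.26 and an edgeR adjusted p of 0.936, and it was 0.10 without control 1 and SRF 3. Fibroblast markers stood at 4522, 5902 and 10484 summed CPM in control and 6991, 9672 and 11430 in SRF mice, with control 1 lowest, as for Adamts2. The part of fibroblasts in the Adamts2 levels was not tested.

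Control 1 recurred as the low library. It was the lowest of the 3 control mice for 8 of the 10 genes (34.6% of all tested genes) and the lowest of all 6 libraries for 7, Adam8, Adam10, Adam17, Adamts1, Adamts2, Adamts4 and Adamts5 (19.9% of all tested genes). Adam9 and Adam12 were the exceptions among the control mice. For Adam8 and Adam10 it was lowest by little, at 2.61 CPM against 2.66 in control 2 and 110.0 CPM against 110.6 in SRF 1. Control 1 also had the smallest total count and the highest photoreceptor sum, 14043 CPM. SRF 3, with a photoreceptor sum of 13593 CPM, was the lowest library for Adamts9 only. The reason for the low levels in control 1 was not tested.

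**Figure D4:**
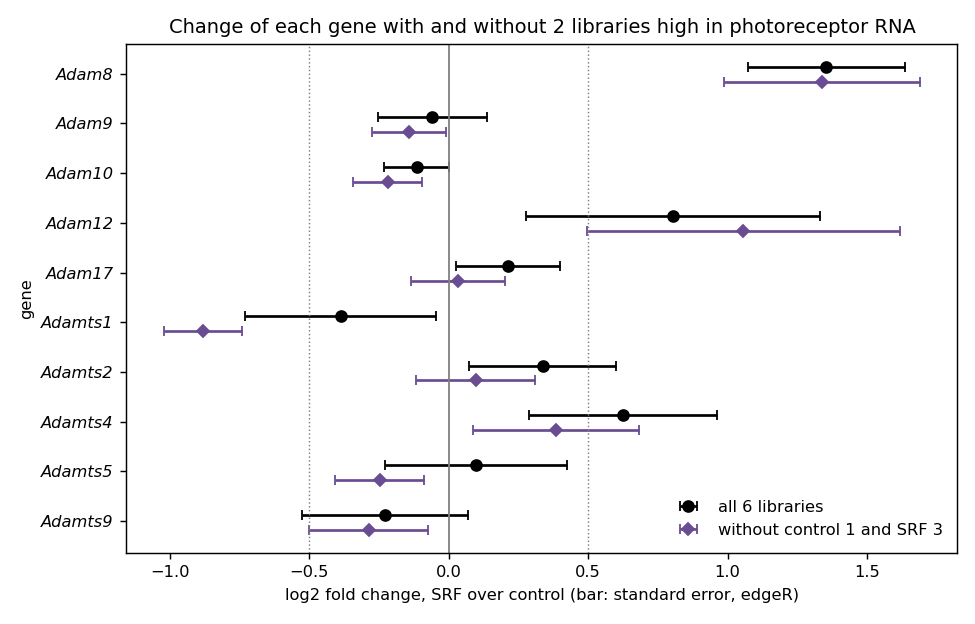
Log2 fold change of SRF over control for each gene with its standard error (edgeR), over all 6 mice and without control 1 and SRF 3; dotted lines mark 0.5 in either direction. Adam8 keeps its place (1.35 and 1.34) and Adamts1 moves from -0.39 to -0.88.

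The other genes of these pathways were taken from lists of families, partners, inhibitors and substrates. By edgeR none of them was called, and the counts below use an unadjusted p under 0.05, at which 4.16% of all genes were higher and 2.85% lower. Of 9 other ADAM genes tested none passed in either direction, and their median log2 fold change was 0.10. The most abundant of them by FPKM, Adam15, stood at 95.3 ± 10.9 CPM in control mice and 111 ± 13.0 CPM in SRF mice (SD, n = 3). Of 6 other ADAMTS genes tested, 1 was higher and none lower, with a median of 0.49. That gene, Adamts6, stood at 4.62, 4.45 and 4.51 CPM in control mice and 7.73, 9.19 and 7.06 CPM in SRF mice, a log2 fold change of 0.82 with a standard error of 0.22 and an edgeR adjusted p of 0.421. Of 6 ADAMTS-like genes, which code for proteins without a protease domain, 1 was higher, Adamtsl5, at 14.1 ± 0.777 CPM in control mice and 18.3 ± 1.09 CPM in SRF mice.

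Among 13 partners and activators of ADAM10 and ADAM17, 1 was higher at an unadjusted p under 0.05 and none lower, and the median log2 fold change was 0.16. Tspan33, a tetraspanin that guides ADAM10 to the membrane, had levels of 1.86, 1.95 and 0.751 CPM in control mice and 3.51, 3.73 and 3.08 CPM in SRF mice. Rhbdf2, which codes for the iRhom that carries ADAM17 to the cell surface, had a log2 fold change of 0.22 with a standard error of 0.28. Tspan10, the most abundant by FPKM, had a log2 fold change of -0.24.

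Of 7 inhibitor and clearance genes, 3 were higher and 1 lower, with a median of 0.10. Timp2 was at 488 ± 38.4 CPM in control mice and 1153 ± 83.5 CPM in SRF mice (SD, n = 3), a log2 fold change of 1.24 with a standard error of 0.12, and was called by DESeq2 (adjusted p = 3.66e-20) and not by edgeR (0.106). Timp1 had a log2 fold change of 0.89, A2m, which codes for a broad protease trap, 0.61, and Timp4 -0.74. Timp3, the most abundant, was at 6894 ± 995 CPM in control mice and 5778 ± 519 CPM in SRF mice, a log2 fold change of -0.25 with a standard error of 0.14 and an edgeR adjusted p of 0.829. Lrp1, the receptor that clears several ADAMTS proteases, had a log2 fold change of 0.10.

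Of 6 matrix substrates of ADAMTS proteases tested, 2 were higher and none lower, with a median of 0.54. Bcan, which codes for the proteoglycan brevican, was at 3.68 ± 1.15 CPM in control mice and 10.6 ± 2.58 CPM in SRF mice and was called by DESeq2 (adjusted p = 0.00398). Col3a1 was at 284 ± 33.4 CPM in control mice and 443 ± 121 CPM in SRF mice, while Vcan, the versican gene, had a log2 fold change of -0.15. Of 28 shed membrane substrates tested, 3 were higher and 2 lower, with a median of 0.13. Trem2, a myeloid receptor cut by ADAM10 and ADAM17, was at 28.5 ± 5.55 CPM in control mice and 62.5 ± 13.7 CPM in SRF mice and was called by DESeq2 (adjusted p = 0.000696). App, the amyloid precursor gene and the most abundant of them, had a log2 fold change of -0.11.

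**Figure D5:**
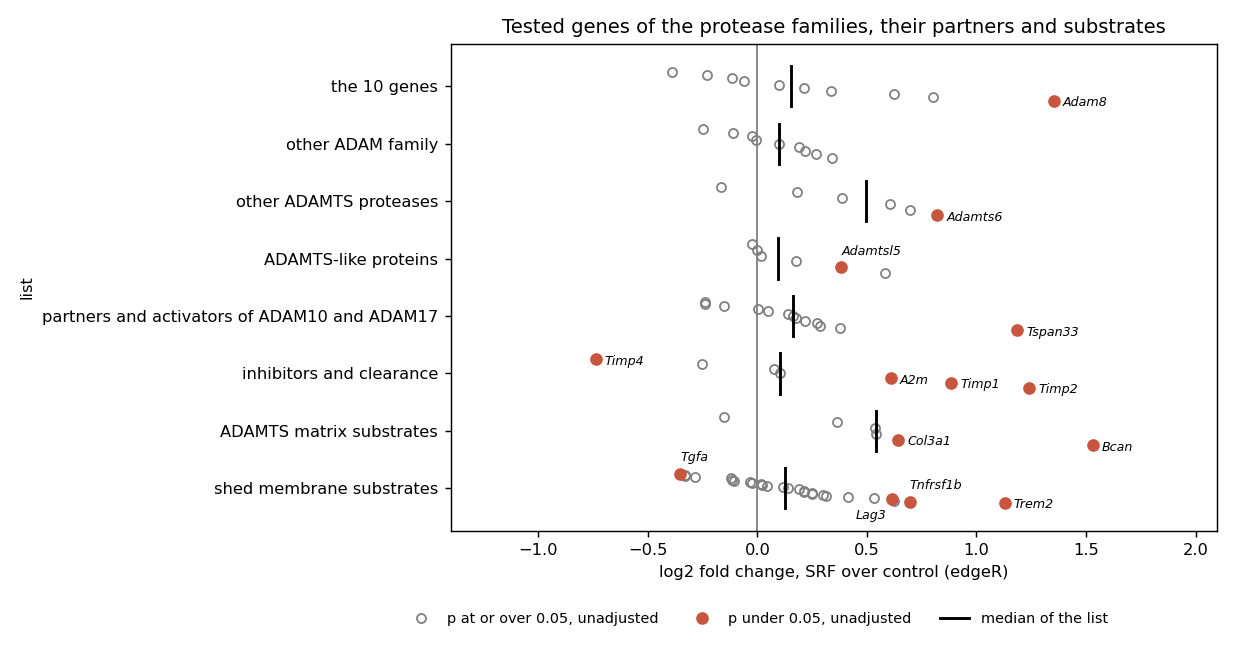
Log2 fold change of SRF over control (edgeR) for the tested genes of the 10 proteases and of 7 related lists, 1 row per list with a bar at its median; 1 shed membrane substrate is not drawn, and filled points had an unadjusted p under 0.05 and carry their names. Adam8 and Timp2 lie at 1.35 and 1.24, and no gene of the other ADAM family is filled.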

How the data were processed

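RNA was extracted from the RPE-choroid of 6 mice, and libraries were sequenced on an Illumina platform. Per the methods, the authors removed adapter and low-quality reads with FASTP 0.18.0 and counted reads per gene with StringTie. The deposited counts are whole numbers, not normalised, and the authors' FPKM values are scaled by transcript length and mapped reads. The aligner, genome build and strand of counting are not given in the sources used here. Of 15663 gene identifiers, 15659 were in GENCODE M21 on GRCm38, which gave coordinates and coding sequence, and promoters came from RefSeq on GRCm38.p6. Promoters were found for 6 of the 10 genes.

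Genes with a count over 50 in at least 2 libraries were tested (13454, with 2209 left out), in all 6 libraries and with no covariate, by edgeR 4.0.16 with TMM scaling and the quasi-likelihood F-test in R 4.3.3, with Benjamini-Hochberg adjustment over all tested genes. The standard error is the log2 fold change over the square root of F. DESeq2 1.42.0 (the tool of the study) and limma 3.58.1 were alternatives, as were other scalings and filters, FPKM with a pseudocount, a replicate block and each library left out. Fits were tested on simulated data, where DESeq2 recovered more of the changed genes than edgeR and also called more unchanged ones. Each simulated gene was drawn on its own with the spread edgeR estimated, so nothing but depth was shared by the genes of a library. Counting depth was 13667310 to 24356023 per library, and the median standard error over all genes was 0.19 (log2). Named genes were the 10 proteases and, of each list, the genes with the smallest unadjusted p under 0.05 (at most 4), the 2 highest by FPKM, and Timp3, Rhbdf2, Lrp1, Adam15 and Vcan. The members and lists were chosen with earlier results of these data known. Nothing says whether extraction was in batches, and each library is 1 mouse. Some items are not reported here.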

Additional observations from a re-analysis of the deposited data

How the results depend on the processing

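Over 26 other settings, 8 of the 10 proteases kept the direction of their log2 fold change. Adam9 turned to 0.065, 0.024 and 0.041 without control 1, SRF 1 and SRF 2 by edgeR (-0.27 to 0.07 with 1 mouse left out) and to 0.057, 0.028 and 0.038 by DESeq2. Adamts5 turned to -0.21 without control 1 and -0.25 without control 1 and SRF 3 by edgeR, and to -0.22 and -0.26 by DESeq2, with up to 0.40 when another mouse was left out. The DESeq2 settings with libraries left out or a block were chosen after seeing the data. Adam8 was called by DESeq2 (1.35) and, without control 1 and SRF 3, at 1.33. DESeq2 gave 1.36 without SRF 3. With 1 mouse left out the change was 1.17 to 1.51 by both tools, and DESeq2 lost the call without control 2 (adjusted p = 0.124), control 3 (0.0506) or SRF 2 (0.278). Adamts1 was called without control 1 and SRF 3 at -0.88 by edgeR and -0.89 by DESeq2, and with 1 mouse left out ranged from -0.70 to -0.13.

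Across all genes edgeR called 0, DESeq2 153, limma on log2(FPKM + 0.1) and on log2(FPKM + 1) 2 each, and edgeR's newer fit, limma-voom, total-count scaling, no filter, filterByExpr and the photoreceptor covariate 1 each. With 1 mouse left out the calls were 0 to 5 by edgeR and 67 to 361 by DESeq2 (237, 91 and 182 without control 1, 2 and 3), and without control 1 and SRF 3 they were 154 and 503. Of the 10 proteases DESeq2 called 1, 0 to 1 with 1 mouse left out, and 2 without control 1 and SRF 3, where edgeR called 1. At an unadjusted p under 0.05, 1 to 3 passed with 1 mouse left out and 2 without those libraries. The share of all tested genes passing that threshold in these reduced sets is not given here. These counts of proteases therefore cannot be read against a background. The causes of the changes between settings were not tested.

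Equal numbers in the 2 groups name separate animals, whose deviations correlated at -0.48, 0.48 and -0.30, so the numbers were not taken as pairs. The replicate block gave 0 calls by edgeR and 201 by DESeq2, Adam8 at 1.33 (adjusted p = 0.420 and 0.0956), and no protease called.

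Adam12 had 12 to 67 counts per library and the largest standard error of the 10 genes, 0.53, and 3 mice a group limit every comparison.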

Other observations

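Ratios of counts within a library do not depend on its total. They were computed for all 45 pairs of the 10 proteases, and those named here were chosen after their values were seen. The ratio of Adamts1 to its chromosomal neighbour Adamts5 was 2.94, 2.99 and 2.77 in the 3 control mice and 1.94, 1.76 and 2.44 in the 3 SRF mice. The SRF mice were all lower, including SRF 3, and control 1 lay with the other control mice although both genes were at their lowest there. The mean log2 ratio differed by -0.52, with an exact permutation p of 0.1, the smallest possible with 3 against 3. This was not particular to the neighbours. Ratios of Adamts1 to Adamts2 and to Adamts4, on other chromosomes, were also lower in every SRF mouse, with log2 differences of -0.68 and -1.02. The ratio of Adamts1 to Adamts9 overlapped between the groups (-0.10).

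The ratio of Adam10 to Adam17, sheddases with overlapping substrates, was 3.31, 3.15 and 2.54 in control and 2.45, 2.26 and 2.31 in SRF mice, a log2 difference of -0.35. Of the 36 pairs without Adam8, 9 did not overlap between the groups, and of the 9 pairs with Adam8, 6. Over all 90498331 pairs of tested genes 12.6% did not overlap. Pairs share genes and are not independent.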
